A study of Mus musculus with 2 samples.

Results

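Tetraspanins are small proteins that cross the membrane several times and gather integrins, proteases and immunoglobulin-like partners into patches of the membrane. Some work mainly at the cell surface, such as CD9, CD81, CD82 and CD151. CD63 sits mostly in late endosomes, lysosomes and secretory vesicles, from where it cycles to the surface, and it is a common marker of the small vesicles that cells release. In pancreatic islets the family is known above all through TSPAN7, an autoantigen of type 1 diabetes, and through CD63 and CD81 as labels of beta-cell subsets. The 10 family members described here are Cd63, Cd9, Cd81, Cd82, Cd151, Tspan3, Tspan7, Tspan8, Tspan13 and Tspan33, taken by symbol out of 27998 genes in the count table. The question was whether Cd63 differed between the chow and the high-fat library alone or together with its family.

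The islets came from wild-type C57BL/6J mice, an inbred strain, that received either chow (4 mice) or a 60% high-fat diet (HFD, 5 mice) during the 6 weeks that followed weaning. Islet cells were cultured overnight and dispersed before capture, and each diet gave 1 droplet library, so no cell is tied to a mouse, and the diet cannot be told apart from the pool of animals or the run. The chow library held 6509 barcodes with a median of 12414 unique molecular identifiers (UMIs, one per captured RNA molecule) and the HFD library 4539 with a median of 13911. Quality limits kept 6387 and 4394 barcodes, and 45 barcode sequences occurred in both libraries.

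Cells were assigned by their own transcripts. Beta cells, which secrete insulin, had at least 20% of their UMIs from Ins1 and Ins2 (4574 chow and 3100 HFD cells). Alpha cells, which secrete glucagon, had at least 5% from Gcg (779 and 402), delta cells at least 1% from Sst, the somatostatin gene (468 and 388), and PP cells at least 15% from Ppy, the pancreatic polypeptide gene (203 and 160). Endothelial cells had at least 10 UMIs of Plvap, Kdr and Flt1 (170 and 126), and macrophages at least 10 of C1qa, C1qb and Lyz2 (54 and 70). None of the 10 tetraspanins took part in this assignment. Levels are summed UMIs of a type per 1000000 UMIs of that type (CPM), and since the assay counts RNA ends they can be compared between genes without regard to length. Insulin transcripts made up 52.1% and 52.9% of beta-cell UMIs, and all levels are relative to totals that include them. Intervals are 95% and cover counting error only, and with 1 library per diet no test of diet was possible.

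To show how the members differ at the end of the protein that carries CD63's known sorting signal, the last 8 codons and the stop of 6 coding sequences are printed here, from the principal transcripts of GENCODE M21 (GRCm38). CD63 ends in a short cytoplasmic tail whose tyrosine-based signal directs it to lysosomes. Capitals mark tyrosine codons, read 5′ to 3′.
Cd63: attcgaagtggcTATgaagtaatgtag
Tspan7: actgccaatcagTATgagatggtgtaa
Tspan3: ctcatcactggcggaaccTACgcgtag
Cd81: ggcatccggaacagctccgtgTACtga
Tspan33: cagcaccgagctgacccgtggTACtga
Cd9: atccgcaggagccgagaaatggtctag
Of the 10 members, 8 have a tyrosine codon among these last 8. It stands at position 4, counted back from the stop, in 2 of them, Cd63 and Tspan7, and directly before the stop in 4, namely Cd81, Cd82, Cd151 and Tspan33. Cd9 and Tspan13 have none there. The codons are a description of the genes, and neither protein nor sorting was measured.

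Cd63 (ENSMUSG00000025351) was the most abundant of the 10 in beta cells of both libraries and the one member that differed strongly between them. It reached 894 CPM (887 to 901) in chow beta cells and 317 CPM (313 to 322) in HFD beta cells, from 63960 and 16762 UMIs. The intervals were far apart, and the chow level was 2.82 times the HFD level. On the log2 scale the HFD over chow ratio was -1.49, and relative to the median ratio of all genes in beta cells (0.20) it was -1.70 (-1.72 to -1.67). Of 12382 genes with a summed count of at least 50, 44 had a ratio as low as that of Cd63 or lower.

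The other 9 members stayed close together in beta cells. Their summed level was 401 CPM (397 to 406) in chow against 396 CPM (391 to 401) in HFD beta cells, with overlapping intervals. Cd63 therefore made up 69.0% of the UMIs of all 10 in chow but 44.5% in HFD beta cells. A member is called here when its ratio lies at least 2-fold past the all-gene median. By that rule 1 of 10 was called lower in beta cells, Cd63, against 2.19% of all tested genes, and 0 of 10 were called higher, against 0.905%. The relative ratios of the other 9 ran from -0.35 to 0.22, with a median of -0.18, and all 9 lay within the middle 90% of tested genes.

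**Figure D1:**
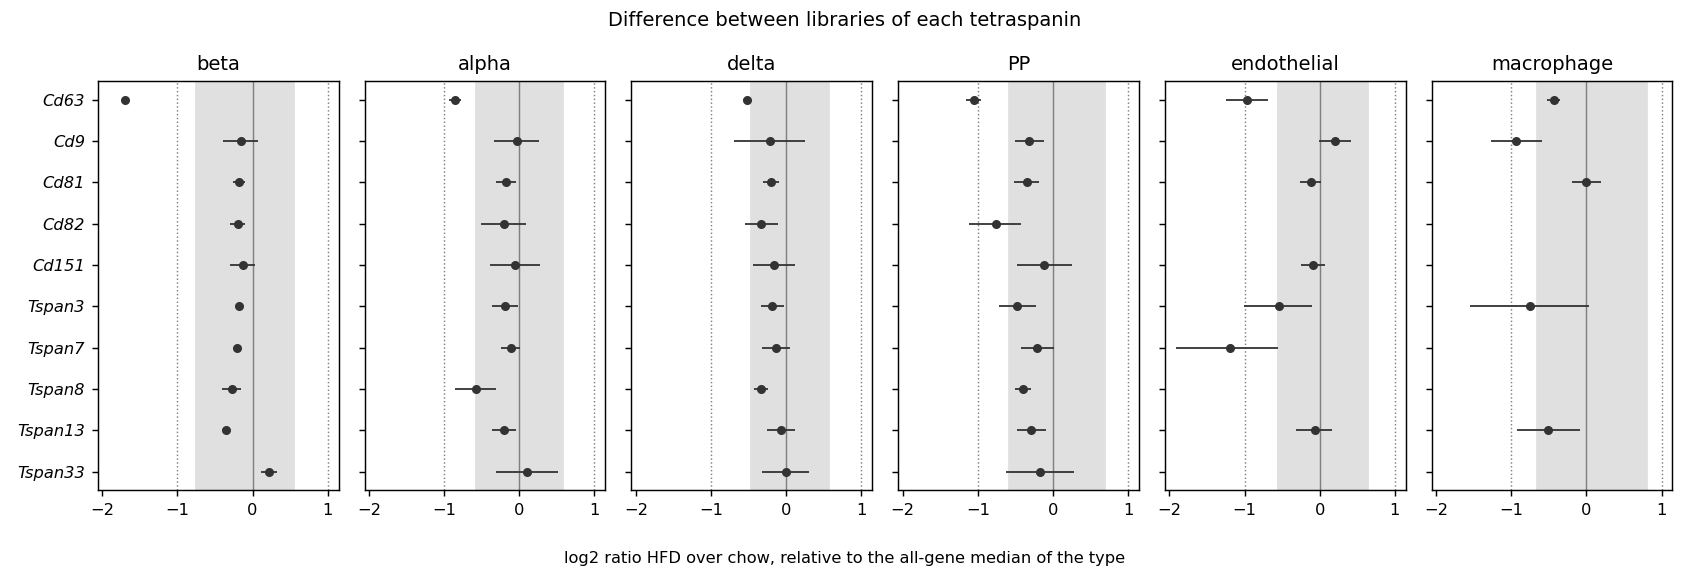
Log2 ratio of HFD over chow for each tetraspanin (rows) in each of 6 cell types (panels), relative to the all-gene median of the type, with 95% counting intervals. The grey band covers the middle 90% of tested genes of the type, dotted lines mark 2-fold, members with a summed count under 50 are left out, and in beta cells Cd63 at -1.70 lies apart from the other 9, which stay between -0.35 and 0.22.

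The surface members differed little between the libraries in beta cells. Cd81 (ENSMUSG00000037706), a partner of immunoglobulin-like membrane proteins, had 38.7 CPM in the chow and 39.2 CPM in the HFD library. Cd82 (ENSMUSG00000027215), known as a suppressor of metastasis, had 27.2 and 27.3 CPM. Cd151 (ENSMUSG00000025510), which binds laminin-binding integrins, had 9.51 and 9.98 CPM, and Cd9 (ENSMUSG00000030342), known for its role in the fusion of egg and sperm, 4.89 and 5.04 CPM. The intervals of the libraries overlapped for all 4 of these genes. Their relative ratios were between -0.20 and -0.13, but without subtraction of the all-gene median they were between 0.01 and 0.07, so their sign depends on the scaling.

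Among the members with Tspan names, Tspan3 (ENSMUSG00000032324), expressed in most tissues, had 71.4 CPM in chow against 72.7 CPM in HFD beta cells. Tspan7 (ENSMUSG00000058254), which shares the tyrosine codon at position 4 with Cd63, had 84.8 and 84.7 CPM. Tspan8 (ENSMUSG00000034127), a tetraspanin of epithelia, had 17.5 and 16.6 CPM. These 3 also had overlapping intervals, and the relative ratio of Tspan3 (-0.17) again turned to 0.03 without subtraction of the median. The counting intervals did not overlap for the remaining 2. Tspan13 (ENSMUSG00000020577), the most abundant after Cd63, had 129 CPM (126 to 132) in chow against 116 CPM (113 to 119) in HFD beta cells, a relative ratio of -0.35. Tspan33 (ENSMUSG00000001763), one of the tetraspanins that bind the protease ADAM10, went the other way with 18.3 CPM (17.3 to 19.3) and 24.5 CPM (23.2 to 25.9), a relative ratio of 0.22. It was the one member above the median in beta cells and stayed above 0 under all 15 alternatives of scaling, filtering and cell choice that could be applied to every member.

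Several properties of the beta-cell sums moved with the library and are given beside the Cd63 difference. Their part in it was not tested, and values without some of the cells are given as a description. Summed macrophage markers in beta cells were 31.4 CPM in chow against 51.9 CPM in HFD, with 8 of 8 higher in HFD and none at 0. Mesenchymal markers were 10.7 and 41.6 CPM, with 6 of 6 higher in HFD, and acinar markers 15.2 and 4.07 CPM, with 5 of 5 lower. Ductal markers were 307 and 164 CPM, but with 2 of 4 lower and 2 higher. Krt7 (222 and 141 CPM) and Spp1 (85.2 and 21.6 CPM) were the 2 that were lower, so the sum does not show a shift of the class. The sum of delta markers, at 775 and 762 CPM, hardly moved, but it was mostly Sst (694 and 677 CPM). Of the 5 delta markers 4 were higher in HFD and 1, Sst, was lower. PP markers were 5161 and 6356 CPM, with 4 of 4 higher. Endothelial markers were 21.7 and 29.1 CPM, with 6 of 7 higher and 1 lower. Alpha markers were 2304 and 1800 CPM, with 3 of 6 lower and 3 higher. When barcodes that met over 1 of the type rules were left out, the relative ratio of Cd63 was -1.75. Beta cells without a UMI of the heat-shock genes Hspa1a and Hspa1b numbered 3047 of 4574 in the chow library and 2964 of 3100 in that of HFD. In those cells Cd63 was at 766 and 310.2 CPM, a relative ratio of -1.43, and the other 9 ranged from -0.25 to 0.23. The strictest selection, beta cells with less than 0.1% of their UMIs from each of Gcg, Sst and Ppy (939 and 1894 cells), gave 1049 and 315 CPM and -1.97. There the other 9 spread more widely, from -0.80 to 0.15 with a median of -0.47.

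Cd63 was also higher in deeper cells, above all in the chow library. With the beta cells of both libraries split by UMIs per cell into 3 groups of equal size, chow beta cells had 689 CPM in the shallowest, 745 CPM in the middle and 1098 CPM in the deepest group, against 271, 297 and 338 CPM in HFD beta cells. The relative ratio was -1.53, -1.497 and -1.94, so the difference was present at each depth. The median relative ratio of the other 9 was -0.11, -0.09 and -0.29 in these groups.

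The difference in Cd63 was seen at the low, middle and high end of its distribution over beta cells. Each cell was thinned to 4000 UMIs, which left out 24 chow cells and 0 HFD cells. At least 1 Cd63 UMI was then present in 86.4% (85.4 to 87.4) of 4550 chow cells and in 61.6% (59.8 to 63.3) of 3100 HFD cells. Before thinning the shares were 97.2% and 91.4%. The median cell held 2 Cd63 UMIs in the chow library and 1 in that of HFD, and the cell at the 90th percentile held 7 and 3. No type here is known to lack Cd63, and the lowest thinned share was that of endothelial cells, 50.9% of 167 in chow (median 7207 UMIs per cell before thinning) and 27.0% of 126 in HFD (median 6765). The HFD beta-cell share was above that of endothelial cells in the same library, and median depth before thinning was 14810 UMIs in chow and 16947 in HFD beta cells.

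**Figure D2:**
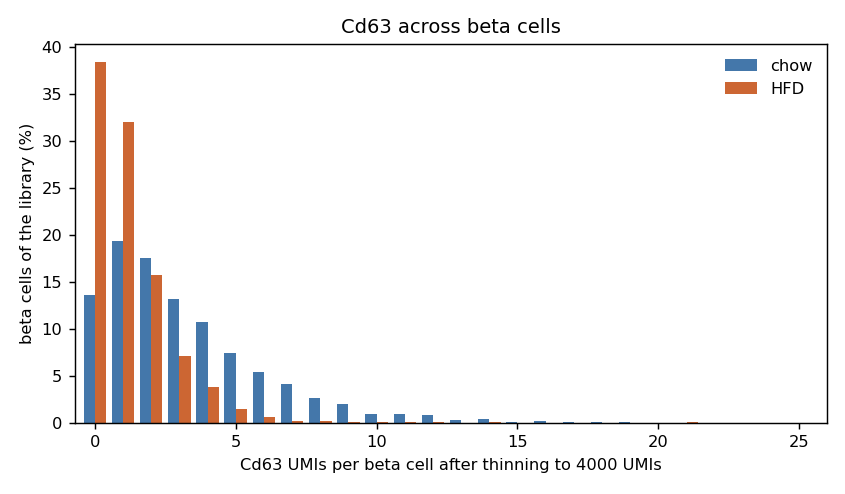
Share of beta cells of each library (vertical axis, %) by the number of Cd63 UMIs left after thinning each cell to 4000 UMIs (horizontal axis). HFD cells pile up at 0 (38.4%, against 13.6% of chow cells), and 6 or more UMIs were found in 18.2% of chow and 1.32% of HFD cells.

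In percentage points the other 9 differed far less in these shares, but they were also found in far fewer cells. As a ratio of shares, Tspan33 differed about as much as Cd63, in the other direction. Shares have a ceiling, however, which narrows this ratio for Cd63, found in 86.4% of chow cells, far more than for Tspan33. The mean count per thinned cell has no such ceiling. It was 3.25 UMIs in chow and 1.18 in HFD for Cd63, against 0.0743 and 0.104 for Tspan33, a smaller difference. After the same thinning Tspan13 was found in 40.04% of chow and 37.4% of HFD beta cells, Tspan7 in 28.9% and 29.6%, and Tspan3 in 24.8% and 26.5%. Cd81 was found in 11.8% and 11.9%, Cd82 in 10.0% and 9.90%, Tspan33 in 7.05% and 9.81%, and Tspan8 in 5.52% and 5.29%. Cd151 was at 3.82% and 3.52%, and Cd9 at 1.87% and 1.61%. Intervals of the 2 libraries did not overlap for Cd63 and Tspan33 and overlapped for the other 8.

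Within a library, the sum of the other members changed little with Cd63 from cell to cell. Beta cells that met 1 type rule were grouped by their thinned Cd63 count, which sets the Cd63 level itself. In the chow library the other 9 summed to 385, 381, 404 and 401 CPM in cells with 0, 1 to 2, 3 to 5 and 6 or more Cd63 UMIs. In the HFD library the sums were 375, 385 and 387 CPM in the first 3 groups and 483 CPM in the last, which held 33 cells. Those 33 cells also had 614 CPM of delta markers, against 144 CPM in cells without a Cd63 UMI, and their Cd9 level was 39.3 CPM against 3.54 CPM. Whether the 2 are linked was not tested. The choice of cells meeting 1 rule was made after seeing that HFD cells rich in Cd63 carried delta transcripts, with 5233 CPM of delta markers over all 41 of them.

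Tspan7 ran opposite to Cd63 in both libraries. Its level was 98.1, 88.7, 80.5 and 77.3 CPM from the lowest to the highest Cd63 group of chow beta cells, and 87.9, 82.6, 76.1 and 72.8 CPM in HFD beta cells. The intervals of the lowest and highest group did not overlap in the chow library (91.3 to 105.3 and 72.9 to 81.9) and overlapped in the HFD library (83.7 to 92.2 and 54.0 to 95.9). Tspan8 ran with Cd63 in the chow library, with 11.8 CPM in the lowest and 17.9 CPM in the highest group. In the HFD library it was at 11.5, 12.6, 12.9 and 23.3 CPM, the last from the group of 33 cells. The part of the delta markers of those cells in this Tspan8 level was not tested. Tspan13 was also higher in the highest than in the lowest chow group, with 130 CPM (124.5 to 136.3) against 116 CPM (108.6 to 123.8). In the HFD library its levels in these groups were 116 and 112 CPM, with overlapping intervals. Median depth rose along the groups as well, from 12253 to 17932 UMIs per cell in the chow library and from 16228 to 22727 in that of HFD, and its part in these trends was not tested.

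**Figure D3:**
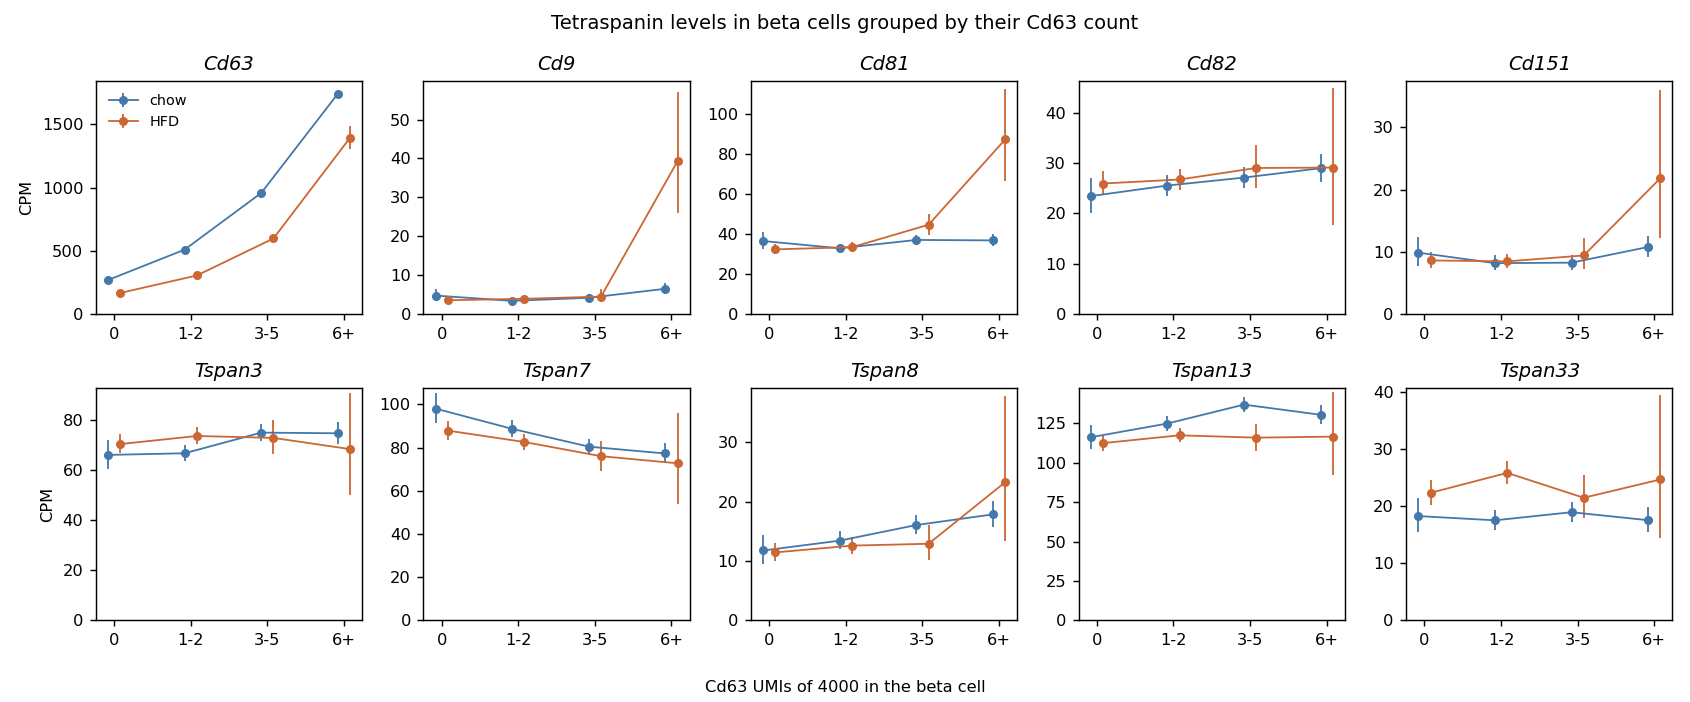
Level of each tetraspanin in CPM (vertical axes, separate scales starting at 0) in beta cells meeting 1 type rule, grouped by Cd63 UMIs after thinning to 4000 (horizontal axis), with 95% counting intervals. Cd63 rises by construction, Tspan7 declines from 98.1 to 77.3 CPM in chow and from 87.9 to 72.8 CPM in HFD cells, and the last HFD group rests on 33 cells.

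All 6 cell types had less Cd63 under HFD than under chow. Levels were 740.4 and 408 CPM in alpha cells, 2213 and 1631 CPM in delta cells, and 883 and 452 CPM in PP cells. They were 268 and 139.8 CPM in endothelial cells, and 3500 and 2738 CPM in macrophages. The chow over HFD fold was 1.82 in alpha, 1.36 in delta, 1.95 in PP, 1.92 in endothelial cells and 1.28 in macrophages, against 2.82 in beta cells. The intervals of the libraries did not overlap in any type, and the interval of the beta-cell ratio overlapped that of no other type. The relative log2 ratio was -0.86 (-0.94 to -0.78) in alpha, -0.52 (-0.57 to -0.48) in delta, -1.05 (-1.16 to -0.95) in PP, -0.96 (-1.25 to -0.69) in endothelial cells and -0.44 (-0.52 to -0.35) in macrophages. In endothelial cells 5 cells held 24.1% of the chow and 39.5% of the HFD Cd63 UMIs.

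The order of cell types by Cd63 level was therefore not the same in both libraries. Macrophages stood first and delta cells second in each. In chow, beta cells came next, with an interval inside that of PP cells (850.1 to 918 CPM), followed by alpha and endothelial cells. In HFD, PP and alpha cells came next, with intervals that just met (426 to 479.5 and 389 to 427 CPM), and beta cells stood below both. Of all Cd63 UMIs in kept cells, beta cells held 75.0% in chow and 54.2% in HFD, delta cells 10.6% and 21.4%, and macrophages 2.17% and 7.99%. These shares also depend on how many cells of a type were caught.

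**Figure D4:**
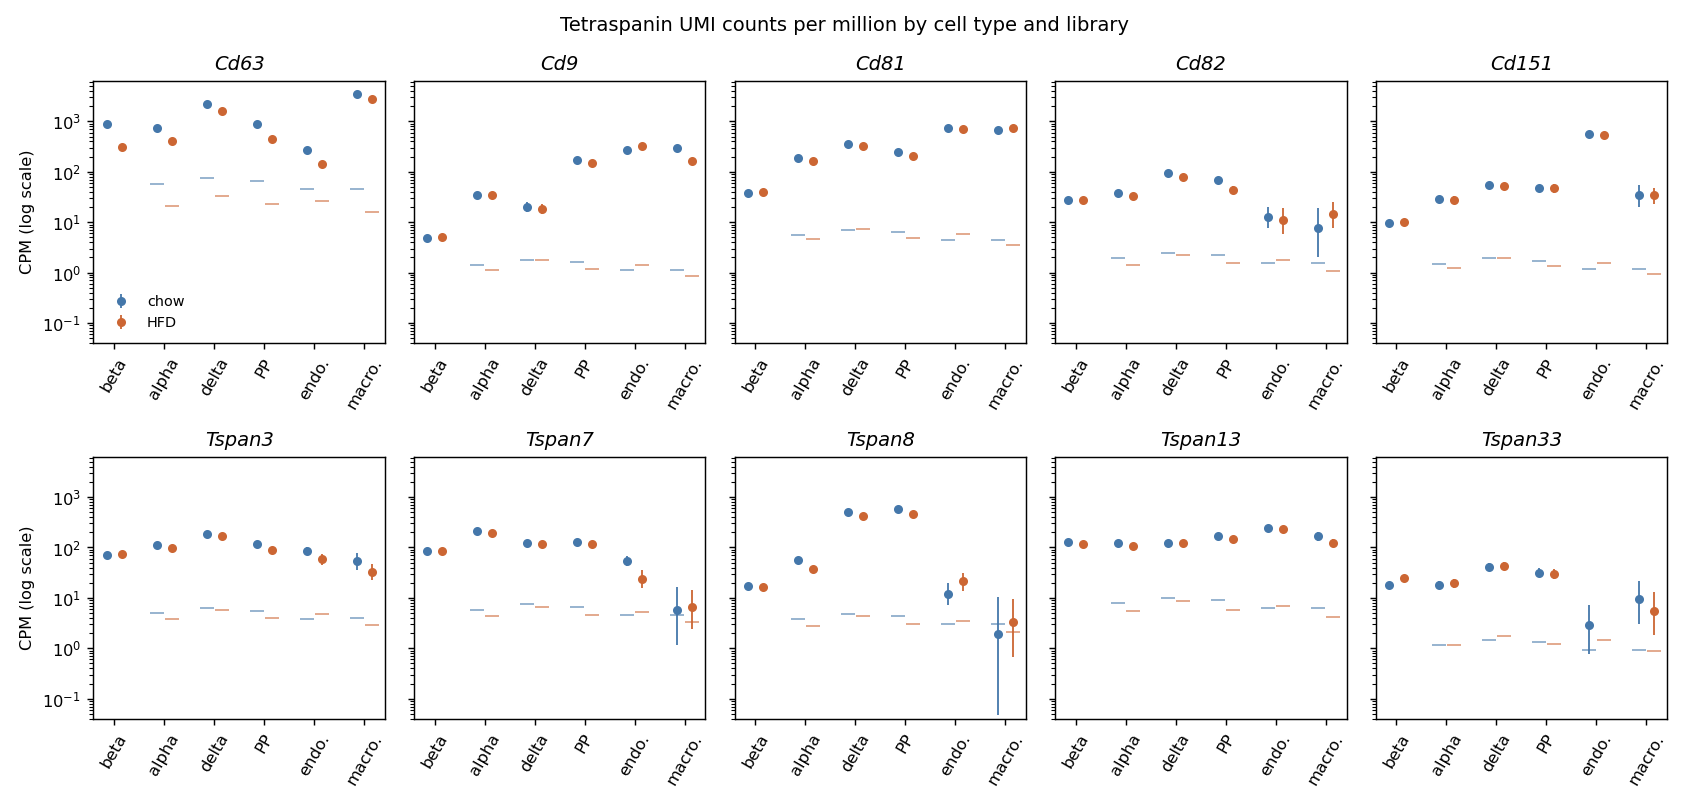
Level of each tetraspanin in CPM (vertical axes, log scale) by cell type and library, with 95% counting intervals. Short bars show, for types other than beta, the level that carried-over RNA alone would give if all insulin UMIs of the type were carried over; a level of 0 (Tspan33 in HFD endothelial cells) is not drawn, and Cd63 in the chow library exceeds HFD in every type.

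Part of a level outside beta cells can be RNA carried over from lysed cells. If every insulin UMI in a non-beta type came in this way together with the average RNA of the library, carried-over Cd63 would amount to 73.7 CPM in chow against 33.1 CPM in HFD delta cells, and to 45.7 and 26.5 CPM in endothelial cells. Both are well below the measured levels. The same estimate came close to the measured level for Tspan7 in macrophages (5.68 and 6.65 CPM measured, 4.64 and 3.26 CPM estimated) and for Tspan8 in macrophages (1.89 and 3.32 CPM measured, 3.03 and 2.11 CPM estimated), so no expression is read from those.

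Outside beta cells few members passed the 2-fold rule. In alpha cells 0 of 10 were called, where 1.02% of tested genes were called lower and 0.559% higher. In delta cells 0 of 10 were called, against 0.407% lower and 0.565% higher. In PP cells 1 of 10 was called lower, Cd63, against 0.837% of genes, and 0 higher, against 1.37%. In endothelial cells 7 members had enough UMIs and 1 was called lower, Tspan7, against 0.656% of genes, with 0 higher against 0.95%. In macrophages 5 members had enough UMIs and 0 were called, against 1.84% lower and 2.76% higher. The Cd63 call in PP cells held under 12 of 15 alternatives, which gave ratios from -1.12 to -0.96, and was lost without centring, after thinning and with a summed count of at least 200. The Tspan7 call held under all 14 alternatives in which it had enough UMIs.

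Most differences of the 10 members outside beta cells, called or not, pointed to the chow library. All 10 members lay below the all-gene median in delta and in PP cells, 9 of 10 did in alpha cells, 6 of 7 in endothelial cells and 4 of 5 in macrophages. By construction as many of all genes lie below that median as above it. Some of these intervals crossed it, such as that of Tspan33 in delta cells (-0.005, -0.32 to 0.31). The 21 other tetraspanins of the family did not all share this direction. Of those with enough UMIs, 3 lay below and 5 above the median in delta, 2 and 5 in PP, and 2 and 7 in endothelial cells. In alpha cells 6 lay below and 2 above, and in macrophages 3 and 1. Without the centring, Tspan13 and Tspan33 had ratios above 0 in delta cells (0.02 and 0.08), while all 10 remained below 0 in PP cells. The median relative ratio of the other 9 was -0.18 in alpha, -0.18 in delta and -0.31 in PP cells. Cd63 lay 1.51 below that median of its relatives in beta, 0.68 in alpha, 0.34 in delta, 0.74 in PP and 0.86 in endothelial cells on the log2 scale, but 0.20 above it in macrophages, where 4 relatives had enough UMIs.

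Tspan7 was highest in alpha cells, where it had 209.6 CPM in chow against 193 CPM in HFD, followed by PP cells with 128 and 118 CPM and delta cells with 123 and 119 CPM, which did not differ beyond their intervals. Endothelial cells had 54.6 CPM in chow against 23.9 CPM in HFD, from 76 and 26 UMIs, a relative ratio of -1.20 (-1.92 to -0.55). In that type 5 cells held 35.5% and 38.5% of the Tspan7 UMIs. Summed mesenchymal markers in the same cells were 2376 CPM in chow against 1623 CPM in HFD, with Col1a1 at 0 in both, and ductal markers 1179.5 and 252 CPM, with Krt19 and Sox9 at 0 in both. Mgp alone made up 2267 and 1511 CPM of the mesenchymal sum, and Spp1 alone 1164 and 244 CPM of the ductal sum. Of the 6 mesenchymal markers 3 were lower and 2 higher in HFD, so that sum does not show a shift of the class. The part of these markers in the Tspan7 difference was not tested.

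Tspan8 marked delta and PP cells. It had 576 CPM in chow against 465 CPM in HFD PP cells and 498 and 420.3 CPM in delta cells, and the order of these types held in chow, whereas in HFD their intervals met (438 to 492 and 401 to 441 CPM). No other type exceeded 55.3 CPM. In alpha cells it was at 55.3 and 36.8 CPM, a relative ratio of -0.58, which was -0.88 without barcodes meeting over 1 rule and -0.17 in 1 random thinning to 4000 UMIs. A separate thinning of the same cells left 0.202 Tspan8 UMIs per chow cell and 0.119 per HFD cell, a wider gap, so the thinned value depends on the draw. In alpha cells 5 cells held 12.3% and 22.2% of its UMIs.

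Cd81, Cd151 and Cd9 were highest outside the endocrine cells. Cd81 had 742 CPM in chow against 694 CPM in HFD endothelial cells and 684 and 724 CPM in macrophages, with overlapping intervals between the types in each library. It was at 355 and 328 CPM in delta, 245 and 205 CPM in PP and 186 and 164 CPM in alpha cells, and lowest in beta cells. Cd151 was concentrated in endothelial cells, with 551 and 526 CPM, and no other type exceeded 55.3 CPM. Delta cells (55.3 and 52.3 CPM) and PP cells (47.5 and 46.7 CPM) did not differ beyond their intervals, and beta cells again had the lowest level.

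Cd9 had 276 CPM in chow against 325 CPM in HFD endothelial cells and 289.8 and 161 CPM in macrophages. The macrophage difference gave a relative ratio of -0.93 (-1.27 to -0.60), just inside the 2-fold limit, from 153 and 145 UMIs, of which 5 cells held 34.0% and 35.2%. PP cells had 174 and 148 CPM, far above alpha cells (34.8 and 33.9 CPM), delta cells (20.1 and 18.2 CPM) and beta cells. In delta cells 5 cells held 40.2% and 36.5% of the Cd9 UMIs.

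Cd82 was an endocrine member, with 94.2 CPM in chow against 79.4 CPM in HFD delta cells and 70.0 and 43.9 CPM in PP cells. The PP difference was -0.76 (-1.11 to -0.42) relative to the median, from 211 and 109 UMIs. Alpha cells followed with 37.9 and 32.8 CPM. Endothelial cells had 12.9 and 11.04 CPM and macrophages 7.58 and 14.4 CPM, from 4 and 13 UMIs in the latter, too few for a comparison.

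Tspan3 and Tspan13 varied less across types. Tspan3 was highest in delta cells with 185 CPM in chow against 172 CPM in HFD, then PP cells with 118 and 90.1 CPM and alpha cells with 112 and 97.6 CPM, whose intervals overlapped. It had 84.7 and 58.9 CPM in endothelial cells and 53.0 and 33.2 CPM in macrophages. Tspan13 was highest in endothelial cells with 242 and 235 CPM, and the intervals of delta cells, with 121 and 122 CPM, and alpha cells, with 123 and 106 CPM, overlapped in both libraries. PP cells had 171 and 149 CPM of it and macrophages 167 and 124 CPM.

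Tspan33 was highest in delta cells with 41.6 CPM in chow against 43.9 CPM in HFD, followed by PP cells with 31.5 and 29.8 CPM. Alpha cells, with 18.1 and 19.4 CPM, had no more than beta cells. Endothelial cells gave 4 UMIs in chow and 0 in HFD, and macrophages 5 and 5. Under HFD the intervals of beta cells (23.2 to 25.9 CPM) and alpha cells (15.6 to 23.9 CPM) overlapped.

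By the likeness of levels over the 12 sums of type and library, the genes closest to Cd63 were Syce2 (Pearson r = 0.96), Uap1l1 and Frrs1 (both 0.94), and Dpp7 and Dcxr (both 0.93), of 11393 genes compared. Dpp7 encodes a dipeptidyl peptidase of vesicles and lysosomes, and Dcxr a carbonyl reductase. The closest gene was Adh5 for Cd81 (0.98), Pigp for Cd82 (0.98), Rhoc for Cd151 (0.98), Aplp1 for Tspan7 (0.98) and Bnip3 for Tspan33 (0.98). It was Slc25a14 for Tspan3 (0.97), Itpka for Tspan8 (0.95), Tmem140 for Tspan13 (0.94) and Apool for Cd9 (0.92). No tetraspanin was the closest gene of another. The 12 sums share 2 libraries and differ in depth, so these values are a description.

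The rest of the family also showed no difference of the size of Cd63 in beta cells, as was the case for nearly all tested genes. Of 21 other tetraspanins, 12 had enough UMIs, and 0 were called lower and 0 higher (2.19% and 0.905% of all genes), with a median relative ratio of 0.10. The most abundant were Tspan5, which binds ADAM10, with 46.3 CPM in chow against 59.9 CPM in HFD, Tspan31 with 30.4 and 25.8 CPM, and Tspan15, another ADAM10 partner, with 27.1 and 28.4 CPM. Tspan33, Tspan5 and Tspan15 had relative ratios of 0.22, 0.17 and -0.13, and Adam10 itself -0.14 (17.1 and 17.8 CPM).

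Partners of tetraspanins in the membrane gave 0 calls of 9 tested in either direction, against 2.19% lower and 0.905% higher of all tested genes, with a median of -0.11. Epcam, an adhesion protein of epithelia, had 74.0 and 63.4 CPM, Cd47, which restrains phagocytosis, 69.2 and 72.4 CPM, and Itgb1, an integrin beta chain, 27.9 and 34.0 CPM. Cd44, a receptor of hyaluronan, had the highest relative ratio of the list, 0.68, with 18.0 CPM in chow against 33.1 CPM in HFD.

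Genes of the endosome, of exosomes and of the ESCRT machinery, which buds vesicles into late endosomes, gave 0 calls of 12 tested, against the same 2.19% and 0.905%, with a median of -0.10. Rab7, the small GTPase of late endosomes, had 123 and 128 CPM. Chmp4b, an ESCRT-III subunit, had 101 and 89.5 CPM, and Rab27a, which docks secretory vesicles, 54.7 and 69.6 CPM. Other proteins of the lysosomal membrane, where CD63 itself is abundant, gave 0 calls of 9 tested, again against 2.19% and 0.905%, with a median of -0.17. Cd164 had 490.1 and 501 CPM, Lamp1 170.5 and 164 CPM, and Laptm4a 164 and 144 CPM. The largest difference to the chow side in this list was -0.39, that of Laptm4a. Outside beta cells, Icam1, an adhesion receptor, was called higher in HFD endothelial cells (32.3 and 68.1 CPM, 1.05) and Cd164 lower in HFD macrophages (92.8 and 41.0 CPM, -1.26), from 45 and 74 and from 49 and 37 UMIs. Icam1 was 1 of 6 tested partners, against 0.95% of genes called higher, and Cd164 1 of 8 tested genes of the lysosomal membrane, against 1.84% called lower.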

How the data were processed

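The authors deposited 1 matrix of raw UMI counts for each diet. Per the labels' protocols the libraries were made with the 10x Genomics single-cell kit, and per the submitters' processing notes Cell Ranger (2.1.0) was used. Build, annotation and the choice of barcodes: not given in the sources used here. The matrices were not normalized, and the smallest barcodes held 3846 UMIs in chow and 4017 in HFD, of 89292222 and 68544729 in all. Barcodes with under 500 genes or over 10% mitochondrial UMIs (122 and 145) were removed. Doublets were not called, and the 2.66% and 2.91% of barcodes meeting over 1 type rule stayed in the first type of the order beta, alpha, delta, PP, endothelial, macrophage. 139 chow and 148 HFD barcodes had no type.

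Counts were summed per type and library. Ratios had 0.5 counts added and the median of genes with a summed count of at least 50 subtracted. Poisson intervals are exact, those of ratios exact and conditional, those of shares Clopper-Pearson. The ratio step recovered known folds in simulated counts. These had counting error only and as many genes raised as lowered, so they check the computation and cannot test the centring. Named genes are the 10 members, the 3 most abundant or any called genes of 4 lists, and the genes most alike by log2(CPM + 1). Members and lists were chosen with earlier results of these data known. A Cd63 pseudogene has no entry in the gene table, and how reads shared with it were counted is not given. Python 3.11.15, numpy 2.4.6, scipy 1.17.1, pandas 2.3.3 and edgeR 4.0.16 (trimmed mean of M-values, as an alternative scaling) were used.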

Additional observations from a re-analysis of the deposited data

How the results depend on the processing

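No paired analysis was possible because each diet has 1 library, and for the same reason no replicate could be left out. In beta cells Cd63 stayed the one member called lower, and 0 others joined it, under every alternative run, including a fold of 1.5. Its relative ratio was -1.49 without centring, -1.52 with totals that leave out hormone genes, -1.75 without barcodes meeting over 1 rule, -1.65 after thinning to 4000 UMIs, -1.64 as a mean share over cells and -1.76 with stricter type thresholds. Chosen after seeing the data, subtraction of carried-over UMIs gave -1.74 and the absence of Hspa1a and Hspa1b UMIs -1.43. Beta cells with little Gcg, Sst and Ppy gave -1.97, and 3 equal groups by depth -1.53, -1.497 and -1.94. The cause of these shifts was not tested. Calls in other cell types numbered 2, and became 1 without centring (Cd63 in PP cells lost), 4 without the deepest 5% of cells, 4 as a mean share (Cd63 in endothelial cells and Cd9 in macrophages added in both), 3 after thinning to 4000 UMIs (the same 2 added, Cd63 in PP cells lost) and 0 with a summed count of at least 200. The share of beta cells with a Cd63 UMI was 97.2% in chow and 91.4% in HFD without thinning, and 96.5% and 82.9% at 8000 UMIs. No result changed sign while being called. Sums of few cells limit endothelial cells and macrophages, where 3 and 5 of the 10 members had under 50 UMIs.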

Other observations

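Cd81 was one of the tetraspanins that were spread unevenly over beta cells in both libraries. In beta cells meeting 1 type rule and thinned to 4000 UMIs, the variance of its count divided by the mean was 1.63 in chow and 1.54 in HFD, where an even spread gives a value near that of Tspan3 (1.02 and 1.03) or Tspan13 (0.999 and 1.03). At least 1 Cd81 UMI was found in 11.3% of chow and 11.2% of HFD cells, against 14.4% and 14.1% if the same UMIs fell evenly on cells. Cd63 was uneven as well, with 2.78 and 1.71, and so were Tspan8, with 1.20 and 1.15, and Cd9, with 1.17 and 1.25. The ratio depends on the mean count, so these values rank neither the genes nor the libraries.

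Beta cells with 2 or more Cd81 UMIs numbered 130 in chow and 91 in HFD. Compared with cells without one, they had more Pyy, the peptide YY gene (9583 against 1033 CPM in chow and 10655 against 1147 CPM in HFD), and more Ppy (7787 against 1661 CPM and 7153 against 1538 CPM). Tspan8, the tetraspanin of PP and delta cells, was at 72.3 against 11.3 CPM and at 56.2 against 9.21 CPM. Tspan33 was at 29.8 against 17.4 CPM and at 45.2 against 22.5 CPM. Insulin transcripts made up 46.2% against 53.2% and 44.6% against 54.5% of UMIs, and Ucn3, a gene of mature beta cells, was at 150.2 against 256 CPM and at 110.9 against 229 CPM. Cd63 did not move alike in the libraries, with 863 against 893 CPM in chow and 468 against 296 CPM in HFD. Sst was at 233 against 194 CPM in chow and 559 against 135 CPM in HFD. These genes were chosen after their values were seen among 1050 genes compared, and the part of droplets that hold 2 cells was not tested.

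Some genes went with Cd63 from beta cell to beta cell, between cells with 6 or more and with 0 Cd63 UMIs. The genes named were picked for moving the same way in both libraries, so that likeness is set by the choice. Crybb3 was at 408 against 122 CPM in chow and 253 against 81.9 CPM in HFD, the proteasome subunit gene Psma2 at 147 against 64.8 CPM and 143 against 48.2 CPM, and the lysosomal protease gene Ctsl at 157 against 71.0 CPM and 159 against 68.1 CPM. Lower in cells rich in Cd63 were Ero1lb, which serves disulfide formation in the endoplasmic reticulum (156 against 276 CPM and 112 against 258 CPM), Slc30a8, the zinc transporter of insulin granules (154 against 256 CPM and 162 against 267 CPM), and the beta-cell transcription factor Nkx6-1 (91.6 against 149.6 CPM and 84.4 against 132 CPM). They were picked after seeing their values among 1025 genes, the HFD cells with 6 or more UMIs number 33, and cells with more Cd63 UMIs were also deeper.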
